A study of Gallus gallus with 6 samples.

Results

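The transcripts of untreated whole embryos of the chicken, Gallus gallus, collected at stage 10 of the Hamburger-Hamilton series, were described from 3 control libraries, which are 3 of the 6 libraries of the series. The series asks how zinc oxide nanoparticles affect the cranial neural crest, and its other 3 libraries, from treated embryos of the same stage, are not described here. The genes described are the 13282 of 24098 in the files (55.1%) whose mean over the 3 controls was 1 FPKM or more. FPKM is the number of sequenced fragments divided by the length of the gene model and the depth of the library, so that levels can be compared between genes of different length. The labels give whole embryos, stage 10 and the group control for each library, with no strain, sex or genotype. They also give a window of hours that starts at 34 for every library and ends at 39, 40 and 41 for control 1, 2 and 3. The end of the window increases by 1 hour from each library of the series to the next, so it is printed as the labels give it and no result rests on it. The labels do not state whether a library is 1 embryo, a pool or a repeat of the same RNA, or whether yolk sac membranes were removed. The spread between libraries may therefore be technical in part. With 1 group of samples no test between groups is possible, and levels are given as values in control 1, 2 and 3 or as mean ± SD (n = 3).

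At stage 10 the chick embryo has a series of somites, a brain divided into vesicles, a heart tube that is looping and starting to beat, and the first blood islands in the membranes around it. The neural crest, a migratory population that gives rise to pigment cells, peripheral neurons and much of the facial skeleton, is leaving the head neural tube. The neural plate is still being laid down at the tail end. Most organs known from the hatched bird, such as bone, pancreas, lung and lymphoid tissue, have not yet formed.

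Depth, computed from the steps between FPKM values, was 18305990, 18208501 and 19843561 reads for control 1, 2 and 3. Reads on the 13282 genes made up 98.9% of it in each library, and the median gene had 625, 596 and 651.5 reads. This depth is the total by which the FPKM values were divided. It may hold only reads counted on genes, so the 98.9% is not read as a share of all sequenced reads. Values above 0 were listed for 19035 to 19347 genes per library and for 17795 genes in all 3. Of the 13282 genes, 12570 (94.6%) matched a chicken gene of the RefSeq table for assembly GRCg7b, and 712 did not and carry no name here. Among protein-coding genes of that table, 11988 of 15957 (75.1%) reached 1 FPKM.

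The most abundant transcripts of the stage 10 embryo encoded the machinery of protein synthesis, together with a lipoprotein, a growth factor and the contractile cytoskeleton. APOA1, the main protein of high-density lipoprotein and a product of yolk sac and liver, had the highest mean, with 5144, 7017 and 3019 FPKM in control 1, 2 and 3. It was highest in control 2 and lowest in control 3, and the ratio of FPKM + 1 between these libraries was 2.32. EEF1A1, the elongation factor that brings aminoacyl-tRNA to the ribosome, had 4006, 3371 and 4549 FPKM and was highest in control 3. MDK, midkine, a heparin-binding growth factor of embryonic tissues, had 3391, 4529.8 and 2953 FPKM and was highest in control 2. PPIA, cyclophilin A, a proline isomerase that helps proteins fold, had 3196, 3224 and 4216 FPKM. MYL6, the essential light chain of non-muscle and smooth muscle myosin, had 2516, 2428 and 3038 FPKM, and ACTB, cytoplasmic actin, had 2184, 1985 and 2589 FPKM. The order of these genes differed between libraries. APOA1 was first in control 1 and 2 and the fifth in control 3, below EEF1A1, PPIA, MYL6 and RPLP1, and without control 2 its mean of 4082 FPKM was below that of EEF1A1 (4277 FPKM). MDK lay above EEF1A1 in control 2 and below PPIA in control 3.

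Of the 30 most abundant genes, 20 were ribosomal protein genes by name, as were 62 of the first 100. RPLP1, a protein of the ribosomal stalk, led them with 2713 ± 290.0 FPKM. RPS6 (2433 FPKM), RPS15 (2424 FPKM) and RPS26 (2322 FPKM) were among the next. RPS28, RPS23, RPL37A, RPS2, RPS10, RPL13, RPS3A, RPL23, RPS12, RPL27, RPS27, RPS20 and RPS29 had means between 1768 and 2206 FPKM. RPS6 and RPS23 varied little between libraries, with a coefficient of variation (CV, the SD as a percentage of the mean) of 2.401% and 3.05%. The other members of the 30 included RPSAP58 (2323 ± 307 FPKM), for which RefSeq lists RPSA, the ribosomal protein also known as the laminin receptor, as a synonym. LOC112530942 (1785 ± 163 FPKM) is annotated as protein coding without a gene name. Of the first 30, 2 genes with the identifiers 107050719 (2018 ± 373 FPKM) and 101750014 (1835 ± 192 FPKM) did not match the table. Ribosomal protein genes have many processed copies in vertebrate genomes, and the sources used here do not state how reads shared between copies were counted, so the level of any single member is uncertain.

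**Figure D1:**
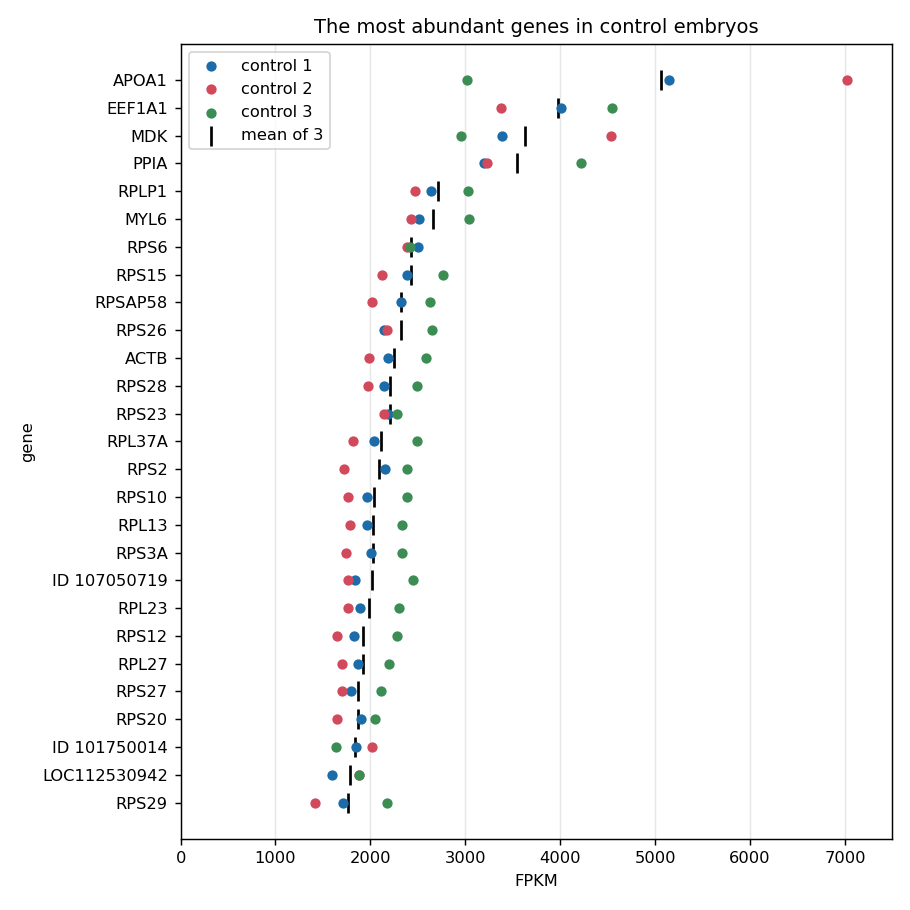
FPKM of 27 of the 30 genes with the highest mean, with 1 point per control library and a bar at the mean of the 3. APOA1 spans 3019 to 7017 FPKM, while the 3 points of most ribosomal protein genes lie close together with control 3 highest.

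Few genes carried much of the measured transcript. The 10 most abundant genes held 5.77% ± 0.186 of the summed FPKM, the first 100 held 28.7% ± 1.54 and the first 1000 held 61.7% ± 1.33. APOA1 alone held 0.96%, 1.32% and 0.539% of the summed FPKM in control 1, 2 and 3. The median of the 13282 genes was 11.1 FPKM, with quartiles at 4.40 and 28.1. At least 10 FPKM was reached by 7023 genes, at least 100 by 897 and at least 1000 by 80, and these last 80 held 25.4% of the summed FPKM. The 80 had short gene models, with a median of 691 bases against 2651.5 bases over all 13282 genes. Counted as reads, which are not divided by length, the first 100 genes by FPKM held 13.9% ± 0.967. The 100 genes with the most reads, of which 62 are also among the first 100 by FPKM, held 16.0% ± 0.50 of the reads.

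Ribosomal proteins formed the largest of the classes described. The 72 measured cytosolic ribosomal protein genes held 17.8%, 16.2% and 19.8% of the summed FPKM in control 1, 2 and 3, with 69 of 72 at 1 FPKM or more and a median of 1306 FPKM. As reads they held 6.24%. Members under 1 FPKM included RPL3L (0.543 FPKM), the muscle paralog of RPL3, and RPL14, which was listed at 0. RPL14 is a protein of every cytosolic ribosome, so its value bears on this gene model and is not read as absence of the transcript. Translation factors came to 2.199%, 1.93% and 2.33%, led by EEF1A1 and by EIF5A, the factor that carries the hypusine residue (1626 ± 21.8 FPKM). EEF1B2 (757 FPKM) and EEF1D (433 FPKM), which recharge EEF1A1 with GTP, and EEF2 (554 FPKM), which moves the ribosome along, were next together with EIF3G (316 FPKM).

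Nearly every measured gene of the respiratory chain and of glycolysis was expressed. Nuclear genes of the respiratory chain held 2.33%, 2.298% and 2.39% of the summed FPKM, and 71 of 73 reached 1 FPKM. ATP5B, the catalytic beta subunit of ATP synthase, had 713, 727 and 803 FPKM, and COX6A1, a subunit of cytochrome c oxidase, had 664, 734 and 671 FPKM. UQCRHL (486 FPKM), ATP5L (461 FPKM), COX6C (459 FPKM) and COX7C (458 FPKM) followed, while NDUFA11 and ATP5G2 were listed at 0, which, as for RPL14, is not read as absence. None of the 16 entries of the list of genes encoded by the mitochondrial genome matched a gene in the files, and they are not analysed here. Mitochondrial ribosomal proteins held 0.914%, 0.871% and 0.981%, with all 73 measured members at 1 FPKM or more and MRPL9 highest (234 ± 32.7 FPKM). Glycolysis held 1.096%, 0.957% and 1.18%, with 21 of 22 genes at 1 FPKM or more.

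Within glycolysis some isoforms were far above others. GAPDH had 1192, 841 and 1274 FPKM and ENO1, the enolase of most tissues, had 859.9, 724 and 990.0 FPKM, against 2.58 ± 0.677 FPKM for ENO2, the neuronal enolase. LDHB, the lactate dehydrogenase subunit typical of heart, had 647, 604 and 715 FPKM, and LDHA, the subunit typical of skeletal muscle, had 36.9, 25.5 and 44.8 FPKM. The gene that RefSeq lists as PKLR with PKM, pyruvate kinase, among its synonyms had 868 ± 169 FPKM. ALDOC, aldolase C, had 728 ± 66.1 FPKM. PGAM1 (522 FPKM) was the sixth of the list, and ENO4 (0.836 FPKM) was its only member under 1 FPKM.

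Cytoskeletal genes were led by non-muscle myosin, cytoplasmic actin and keratins of simple epithelia. Genes for actin, tubulin, myosin light chains and their partners held 2.61%, 2.41% and 2.89% of the summed FPKM, and 49 of 50 reached 1 FPKM. Besides MYL6 and ACTB, the highest were TMSB4X, thymosin beta 4, which sequesters actin monomers (1317, 1108 and 1428 FPKM), KRT18 (947, 969 and 1000.2 FPKM), STMN1, stathmin, which takes microtubules apart (795, 685 and 955 FPKM), and TUBA1A (543, 526 and 662 FPKM). Of 17 keratin genes, 7 reached 1 FPKM (41.2%, against 75.1% of protein-coding genes), and 4 of the 7 stood far above the rest. These were KRT7 (1231 ± 158 FPKM), KRT18 (972 ± 26.7 FPKM), the gene listed as KRT24 with KRT19 among its synonyms (852 ± 84.5 FPKM) and KRT8 (428 ± 68.97 FPKM), which pair in simple epithelia in mammals. KRT14 and KRT17 had 22.2 and 21.8 FPKM. The keratins under 1 FPKM were KRT222, KRT80, KRT23, KRT10, KRT9, KRT40, KRT75, KRT6A, KRT5 and KRT71. Among these, KRT5 and KRT10 had 0.0289 and 0.527 FPKM.

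Genes of protein folding, RNA splicing and chromatin were expressed almost without gaps. Chaperones and cyclophilins held 1.96% ± 0.0416 of the summed FPKM (77 of 80 genes), led by PPIA, by PPIB, the cyclophilin of the endoplasmic reticulum (1096 ± 217 FPKM), and by HSPA8, the constitutive HSP70 (646 ± 48.3 FPKM). HSPA5 (570.3 ± 166 FPKM) and HSP90B1 (384 ± 77.99 FPKM), which work in the endoplasmic reticulum, and HSPE1, the co-chaperonin of mitochondria (425 ± 58.9 FPKM), came next. Splicing proteins held 1.26% ± 0.0931 (43 of 43 genes), with HNRNPA1 at 786 ± 101 FPKM, and the proteasome held 0.743% ± 0.0381 (38 of 38 genes), with PSMB7 at 294 ± 18.9 FPKM. The histone genes measured were mostly those for replacement histones, whose mRNA carries a poly(A) tail. H2AZ2 had 1117 ± 91.7 FPKM, H3F3B, histone H3.3, had 797 ± 109 FPKM, H3F3C had 577 ± 95.00 FPKM and H2AFZ had 334 ± 36.1 FPKM. H2BL (0.681 FPKM) was the histone gene under 1 FPKM. DNMT3B, the DNA methyltransferase that sets new marks in early embryos, had 121, 129.6 and 126 FPKM, against 84.8 ± 6.52 FPKM for DNMT3A and 49.5 ± 5.65 FPKM for DNMT1, the maintenance enzyme.

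Division genes were expressed throughout, with 39 of 40 at 1 FPKM or more and a median of 33.7 FPKM. CKS1B, a partner of cyclin-dependent kinases, had 354, 329.6 and 468 FPKM. PCNA, the sliding clamp of DNA polymerase, had 328, 276 and 296 FPKM, and CDK1, the kinase that starts mitosis, had 196, 186 and 221 FPKM. CDKN1C, an inhibitor of these kinases, came after them with 159, 169.9 and 172 FPKM. CCNB3 (135 FPKM) was above CCNB1 (101 FPKM), and CCND1 (37.7 FPKM) above CCND2 (5.699 FPKM). CDKN2B, an inhibitor of CDK4 and CDK6, had 0.0577 FPKM and was the only member of the 40 under 1 FPKM. All 19 measured genes of sterol synthesis reached 1 FPKM, from 13.99 FPKM for NSDHL to 148 FPKM for FDPS, farnesyl diphosphate synthase.

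Collagens, laminins and other matrix genes held 0.607%, 0.724% and 0.499% of the summed FPKM, lowest in control 3. Of these 62 genes, 49 reached 1 FPKM (79.0%), near the 75.1% of protein-coding genes. COL2A1, the fibrillar collagen of the notochord sheath and later of cartilage, was the highest with 519.9, 708 and 556 FPKM. SPARC, a collagen-binding matrix protein, had 588, 666 and 464 FPKM, COL1A1 232, 305 and 198 FPKM, LAMB1, a laminin chain of basement membranes, 196, 219 and 173 FPKM, and FN1, fibronectin, 194, 212 and 167 FPKM. COL4A5 had 172 FPKM. COL10A1, the collagen of hypertrophic cartilage, had 0.01697 FPKM.

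**Figure D2:**
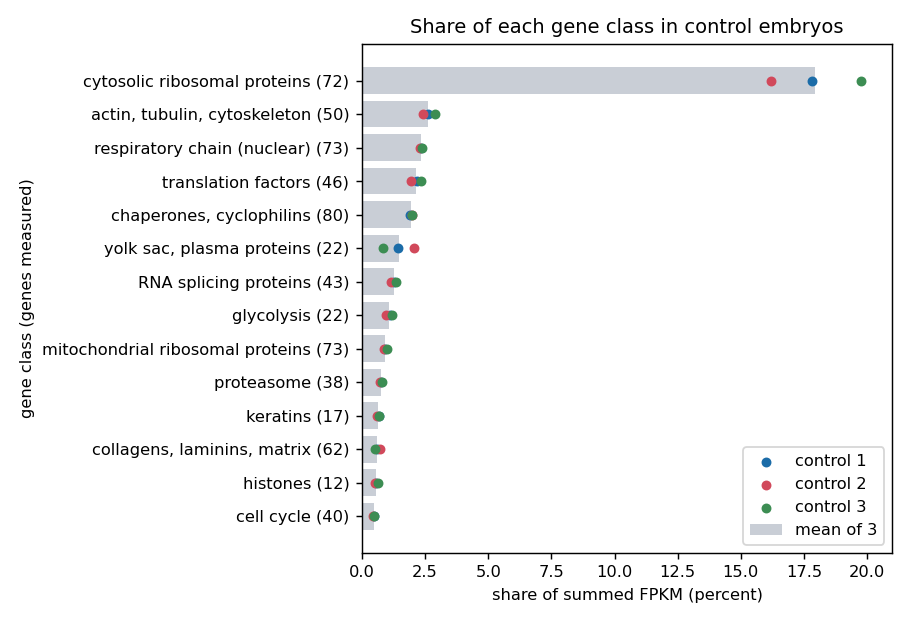
Share of the summed FPKM held by 14 gene classes, with 1 point per control library and a bar at the mean of the 3. The bar of the cytosolic ribosomal proteins is at 17.9%, while every other class lies under 3%. Classes share some genes.

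Some reads came from RNA that the class shares do not show. The gene model with the most reads was the unmatched identifier 101750014, with 150657, 163054 and 144020 reads on 4441 bases. LOC112533599, annotated as ribosomal RNA, had 118641, 99640 and 114019 reads on 4437 bases and 1461, 1233 and 1295 FPKM. Genes annotated as rRNA held 0.614% of the reads. Of the 13282 genes, 224 were long noncoding RNAs with a median of 2.03 FPKM, 168 were microRNA genes and 135 were small nucleolar RNA genes. The microRNA gene models had a median length of 63 bases and a median of 5.33 reads, so their FPKM rests on few reads and was not interpreted gene by gene.

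Most listed markers of the tissues of a stage 10 embryo reached 1 FPKM. Over 19 lists of markers for tissues and cell types that the embryo holds or may hold, 242 of 288 measured genes (84.0%) reached 1 FPKM, against 55.1% of all genes in the files and 75.1% of protein-coding genes, and their median was 11.8 FPKM. Over 10 lists for tissues that form later or for the egg, 41 of 129 (31.8%) did, with a median of 0.301 FPKM. Some genes belong to several lists. The lists were chosen with earlier results of these data known, so the difference between them is a description and no test. In whole embryos, fewer cells of a type and less RNA per cell cannot be told apart, so a level says nothing on its own of how many cells were present.

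Most listed genes of the neural tube, forebrain, midbrain and hindbrain reached 1 FPKM. All 19 measured neural tube genes reached 1 FPKM, with a median of 14.6 FPKM. FABP7, the fatty acid binding protein of neural progenitors, had 97.4, 91.8 and 129 FPKM, CDH2, N-cadherin, 101, 133 and 70.03 FPKM, and NES, the intermediate filament nestin, 78.7, 87.9 and 86.04 FPKM. The ventral progenitor factor NKX6-1 (62.6 FPKM), IRX3 (57.5 FPKM) and ZIC2 (29.6 FPKM) completed the first 6. SOX2, which defines neural progenitors, had 10.1, 7.33 and 13.97 FPKM. Of 15 forebrain and eye genes, 12 reached 1 FPKM (80%), near the 75.1% of protein-coding genes. The highest were TCF7L1 (46.4 ± 2.71 FPKM), SIX3 (20.5 ± 7.94 FPKM), PAX6 (16.1 ± 2.83 FPKM), OTX2 (15.8 ± 6.13 FPKM), OTX1 (11.5 FPKM) and RAX (7.48 FPKM). FEZF1 (0.762 FPKM), VAX1 (0.699 FPKM) and FEZF2 (0.463 FPKM) were under 1 FPKM. At the midbrain and hindbrain, 13 of 14 genes reached 1 FPKM. The hindbrain genes HOXB1 (61.8, 64.5 and 68.5 FPKM) and HOXA2 (63.7, 65.01 and 51.1 FPKM) were highest. GBX2 (48.1 FPKM) and FGF8 (28.99 FPKM), which mark the boundary between midbrain and hindbrain, followed with EPHA4 (21.8 FPKM) and IRX2 (11.7 FPKM). PAX5 was at 0.554 FPKM.

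Neuronal genes were lower than those of neural progenitors. Of 18 neuronal genes, 12 reached 1 FPKM (66.7%), against 75.1% of protein-coding genes, and the median of the 18 was 2.86 FPKM. TUBB3, neuronal tubulin, had 111, 102 and 141 FPKM, and GAP43, a protein of growth cones, came second with 14.7, 11.3 and 15.6 FPKM. ISL1 (10.4 FPKM), NEFM (7.87 FPKM), DCX (7.36 FPKM) and POU4F1 (5.75 FPKM) came next. SNAP25 (0.991 FPKM), a protein of synaptic release, NHLH1 (0.7603 FPKM), STMN2 (0.582 FPKM), NEUROD1 (0.295 FPKM) and INA (0.219 FPKM) were among those that did not reach 1 FPKM.

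All 18 neural crest genes measured reached 1 FPKM, with a median of 19.1 FPKM. MSX1, a factor of the neural plate border, crest and other mesenchyme, had 169.6, 203 and 198 FPKM. LMO4 (87.6, 71.8 and 104 FPKM) and ETS1 (52.7 ± 7.83 FPKM), a cranial crest factor also expressed in vessels, came next, then MSX2 (43.5 FPKM). SNAI2, which represses E-cadherin as crest cells leave the epithelium, had 34.9, 33.2 and 37.01 FPKM, and TWIST1 had 31.8, 39.01 and 26.9 FPKM. FOXD3, SOX10 and PAX7 had lower means than these, although FOXD3 was above TWIST1 in control 3. FOXD3 had 26.5, 28.6 and 29.1 FPKM, SOX10, the factor of migrating crest, 9.43, 8.52 and 9.78 FPKM, and PAX7, an early border and crest factor in the chick, 1.65, 1.81 and 2.42 FPKM. In the surface ectoderm and placodes all 18 genes reached 1 FPKM, and KRT18, KRT24, KRT8, EPCAM (278 ± 66.3 FPKM) and CLDN1 (205 ± 20.3 FPKM) were highest. E-cadherin, CDH1, had 52.03, 60.2 and 43.9 FPKM, and TP63, the epidermal factor, 3.55, 2.25 and 3.17 FPKM.

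Levels in whole embryos cannot be assigned to a tissue. The list for the axial midline was led by COL2A1. Behind it stood the BMP antagonist CHRD, chordin (62.04, 92.3 and 51.03 FPKM), SHH, the signal of notochord and floor plate (35.4, 44.8 and 27.1 FPKM), SPON1 (35.00, 32.9 and 25.3 FPKM), FOXA2 (21.8 FPKM) and NTN1, netrin 1 (16.5 FPKM). TBXT, the brachyury factor of notochord and tail bud, had 15.8, 15.6 and 13.4 FPKM and NOTO 2.899, 5.68 and 3.77 FPKM. FOXJ1, the factor for motile cilia, was the only one of the 11 under 1 FPKM (0.574 FPKM). In the somites, 16 of 18 genes reached 1 FPKM. NKX3-2 (104, 139 and 93.8 FPKM) and PAX1 (50.95, 55.1 and 49.3 FPKM), both of the sclerotome, stood among the highest. LFNG, a fringe enzyme of the segmentation clock (86.7, 94.4 and 73.5 FPKM), FOXC1 (83.9 FPKM), FOXC2 (63.1 FPKM) and TCF15, which keeps somites epithelial (50.6 FPKM), completed the first 6. Of the muscle-determining factors, MYF5 had 5.06, 10.2 and 6.42 FPKM, while MYOD1 had 0.436, 0.292 and 0.536 FPKM. MESP2 was also under 1 FPKM (0.502 FPKM).

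In the tail bud and presomitic mesoderm, 12 of 15 genes reached 1 FPKM (80%), near the 75.1% of protein-coding genes. SP5, a target of WNT signalling, was highest with 183, 221 and 233 FPKM, followed by CDX2 (54.97, 46.8 and 77.6 FPKM), WNT5A (46.1, 59.2 and 41.5 FPKM), EVX1 (31.8 FPKM), DLL1 (13.4 FPKM) and CDX4 (12.6 FPKM). TBX6, which commits cells to the presomitic mesoderm, had 3.901 ± 0.716 FPKM, and MSGN1 (0.901 FPKM), HOXA13 (0.772 FPKM) and FGF4 (0.645 FPKM) were under 1 FPKM. All 10 genes of the intermediate mesoderm reached 1 FPKM, led by CXCL14 (53.1 FPKM), SALL1 (45.8 FPKM) and TBX2 (22.7 FPKM). Kidney factors such as PAX2 (8.61 FPKM), OSR1 (6.53 FPKM), LHX1 (4.26 FPKM) and WT1 (2.33 FPKM) were lower.

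The most abundant transcription factor genes on the 19 lists were HAND1 and HAND2, both of the lateral plate mesoderm list. HAND1, a factor of heart, lateral plate and extraembryonic mesoderm, had 662, 719 and 892 FPKM, and HAND2, its paralog, 472, 513 and 595 FPKM. TBX3 (97.7 FPKM), the signal BMP4 (73.9 FPKM) and PRRX1 (48.9 FPKM) were lower. TBX5, of the heart and future wing, had 15.5, 21.6 and 16.7 FPKM, while TBX4, of the future leg, had 0.192, 0.0963 and 0.2299 FPKM and was the only one of the 15 under 1 FPKM.

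Contractile genes of heart muscle were expressed, and 24 of 26 genes of the list reached 1 FPKM (92.3%), against 75.1% of protein-coding genes. ACTA2, smooth muscle actin that the early heart also uses, had 305, 248 and 299 FPKM. TNNT2, cardiac troponin T, had 232, 297 and 197 FPKM, ACTC1, cardiac actin, 212, 284 and 180.3 FPKM, and TNNC1, slow and cardiac troponin C, 207, 195 and 170.0 FPKM. MYL2 (174 FPKM) and MYL4 (155 FPKM), ventricular and atrial light chains, completed the first 6. NKX2-5, the heart factor, had 52.4, 51.9 and 50.99 FPKM. Of the 2 heart genes under 1 FPKM, PLN, phospholamban, a brake on calcium uptake, had 0.688, 0.649 and 0.673 FPKM and MYL10 0.342, 0.115 and 1.105 FPKM. Of the 24 heart genes at 1 FPKM or more, 18 were highest in control 2 and 19 lowest in control 3. Over all 13282 genes, 4626 were highest in control 2 and 5235 lowest in control 3.

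Genes of vessels and red blood cells were expressed, and most white blood cell genes were under the limit. Of 12 red blood cell and globin genes, 9 reached 1 FPKM (75%), against 75.1% of protein-coding genes. All 18 endothelial genes reached 1 FPKM, with a median of 27.5 FPKM. PLVAP, a protein of endothelial openings, had 239.7, 290.3 and 197 FPKM, LMO2, a factor of blood and endothelial progenitors, 246, 202 and 254 FPKM, and CDH5, the cadherin of vessels, 76.8, 72.6 and 51.1 FPKM. ESAM (127 FPKM), EGFL7 (119 FPKM) and ENG (47.7 FPKM) were the others of the first 6, and VWF was lowest (1.86 FPKM). Among the globins, HBZ had 498, 359.9 and 420.2 FPKM, HBBR 439, 287 and 459 FPKM, HBA1 268, 191 and 238 FPKM, HBE 175, 136 and 189.7 FPKM and HBAD 160.4, 121 and 151 FPKM. All 5 were lowest in control 2, and HBZ, HBA1 and HBAD were highest in control 1. HBBA, the adult beta globin, had 8.75, 6.58 and 8.399 FPKM, and HBE1 0, 0.0981 and 0.08999 FPKM. Globin genes are close relatives, so reads may be shared among them. TAL1, the factor that starts blood formation, had 25.4 ± 1.09 FPKM, while HEMGN (0.954 FPKM) and RHAG (0.0148 FPKM) were under 1 FPKM. Of 8 white blood cell genes only MPEG1, a pore-forming protein of macrophages, reached 1 FPKM (2.05 ± 0.247 FPKM). RUNX1, SPI1, LCP1, PTPRC, CYBB, ITGB2 and CSF1R lay between 0.162 and 0.909 FPKM.

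Endoderm genes reached 1 FPKM for 10 of 15 measured (66.7%), against 75.1% of protein-coding genes. Those under 1 FPKM included factors of later organs such as the pancreas. CLDN3, a tight junction protein, had 298, 415 and 234 FPKM, GATA5 132, 145 and 139 FPKM, HHEX, a factor of anterior endoderm and vessels, 76.04, 65.6 and 70.2 FPKM and SOX17, an endoderm and endothelial factor, 20.7, 17.01 and 20.02 FPKM. NKX2-3 had 34.4 FPKM. The members under 1 FPKM were PDX1 of the pancreas (0.541, 0.669 and 1.78 FPKM), NKX2-1 of thyroid and lung (0.648, 0.915 and 0.889 FPKM), ONECUT1 (0.508 FPKM), PROX1 (0.226 FPKM) and CER1 (0.156 FPKM). Genes of plasma proteins and yolk uptake, which the yolk sac endoderm makes before the liver, held 1.43%, 2.06% and 0.848% of the summed FPKM. After APOA1, TTR, transthyretin, had 1425, 2381 and 919.5 FPKM, TF, ovotransferrin, 333, 461 and 208 FPKM, FGB, a fibrinogen chain, 292, 453 and 207 FPKM, VTN, vitronectin, 83.00, 118 and 72.4 FPKM, and APOA4 71.00, 104 and 91.8 FPKM. LRP2 (11.5 FPKM), CUBN (7.51 FPKM) and AMN (26.03 FPKM), which act together in uptake at the cell surface, were all above 1 FPKM. ALB, albumin, had 0.621, 0.559 and 0.573 FPKM, RBP4 0.134, 0.671 and 0.0616 FPKM and AHSG 0.01296 FPKM. RBP4A, another retinol binding protein gene, had 594, 964 and 368 FPKM.

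Genes known from the epiblast reached 1 FPKM about as often as protein-coding genes in general, and those of germ cells were low. Of 13 epiblast and pluripotency genes, 10 reached 1 FPKM (76.9%), against 75.1% of protein-coding genes. LIN28A, an RNA-binding protein that holds back let-7 microRNAs, had 236, 212 and 299.6 FPKM, CFC1, a cofactor of NODAL signals, 76.9, 119 and 67.4 FPKM, and Pou5f3, the chick relative of OCT4, 38.3, 28.7 and 45.9 FPKM. LIN28B (46.4 FPKM) and SALL4 (37.5 FPKM) lay near it. NANOG had 2.18, 0.948 and 1.96 FPKM, and NODAL (0.727 FPKM), ESRRB (0.167 FPKM) and PRDM14 (0.118 FPKM) were under 1 FPKM. Of 12 germ cell genes, 6 reached 1 FPKM, namely NANOS1 (16.4 FPKM), PIWIL1 (5.64 FPKM), DMRT1 (2.35 FPKM), NANOS3 (2.14 FPKM), TDRD1 (1.79 FPKM) and SYCP3 (1.39 FPKM). DAZL (0.385, 0.339 and 0.533 FPKM) and DDX4, the chick vasa homolog that marks primordial germ cells (0.0395, 0.0794 and 0.146 FPKM), did not, and neither did TDRD9 (0.925 FPKM), DND1 (0.672 FPKM), MAEL (0.580 FPKM) and TDRD5 (0.139 FPKM).

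Markers of later tissues mostly had low values, with exceptions. The median was 0.0223 FPKM for 9 pituitary and thyroid genes, 0.0873 FPKM for 14 egg and oviduct genes, 0.161 FPKM for 7 pigment genes and 1.86 FPKM for 16 cartilage and bone genes. GH, PRL, IBSP, MEPE, MLANA, PRSS2, OPN1MSW, OVALY, OC3 and VMO1, named after their values were seen, were listed at 0 in every library, which, as for RPL14, is not read as absence. SPP1, osteopontin, a secreted phosphoprotein of bone that other tissues also make, was the highest of these markers with 586, 613 and 361 FPKM. PODXL, podocalyxin, a surface protein of podocytes that early epithelia and vessels also carry, had 101, 111 and 87.9 FPKM. COL9A2 had 58.3, 80.4 and 53.5 FPKM, ALPL, alkaline phosphatase, 49.7, 58.3 and 45.6 FPKM, CRYBA4, a lens crystallin, 52.5, 46.00 and 41.2 FPKM, and BGLAP, osteocalcin, 33.6, 42.5 and 25.3 FPKM. SST1, of the somatostatin family, had 21.9, 27.7 and 25.6 FPKM.

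Some of these levels lie where 2 gene models meet. In the GRCg7b table, 10 of the 41 later markers at 1 FPKM or more overlap another gene in the files. The share of all genes with such an overlap was not computed, so this count is not set against it. BTK, a B cell kinase (4.16 FPKM), overlaps RPL36A (1378 FPKM), and CD3E, a T cell receptor chain (9.13 FPKM), overlaps MPZL2 (13.8 FPKM). CRYBA1 (5.17 FPKM) overlaps NUFIP2 (15.6 FPKM). The others of the 10 overlap genes with lower means than their own, such as SMAP2 (31.4 FPKM) for COL9A2 and CRYBB1 (0.453 FPKM) for CRYBA4. PMEL, a pigment cell protein (31.1 FPKM), lies within 2000 bases of CDK2 (115 FPKM), while TYR (0.161 FPKM) and DCT (0.419 FPKM), enzymes of melanin synthesis, were under 1 FPKM. The sources used here do not state whether counting used strand, so the reads of overlapping genes cannot be told apart, and the part of neighbouring genes in these values was not tested.

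**Figure D3:**
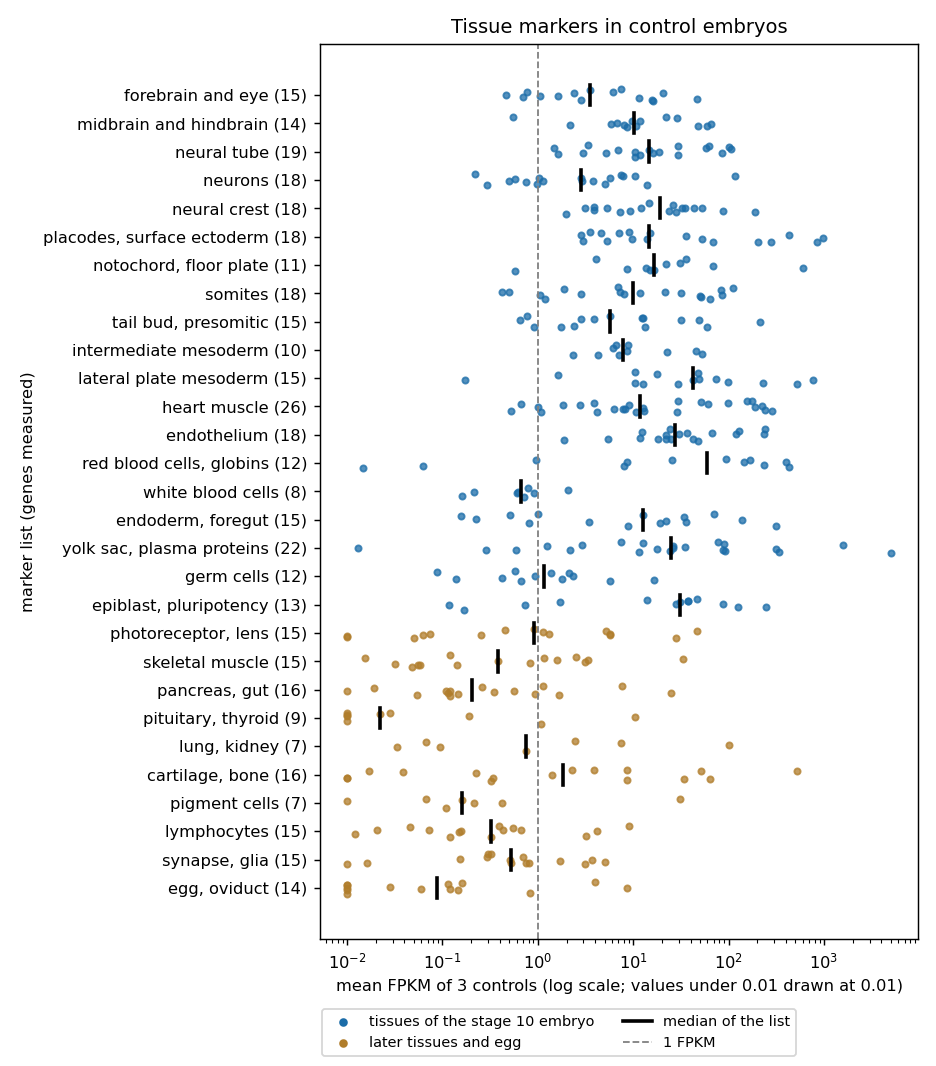
Mean FPKM over the 3 controls of each marker gene (log scale), by list, with 19 lists for the stage 10 embryo in blue and 10 lists for later tissues and the egg in ochre. Black bars mark each list's median. The medians of 18 of the blue lists lie above the line at 1 FPKM and that of the white blood cells below it, while the only ochre median above the line is that of cartilage and bone.

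HOX genes, which give cells their position along the body, reached 1 FPKM up to the ninth paralog group. Of 35 measured, 23 reached 1 FPKM (65.7%), against 75.1% of protein-coding genes, and no HOX gene of groups 10 to 13 did. The anterior genes HOXB1 (61.8, 64.5 and 68.5 FPKM) and HOXA2 (63.7, 65.01 and 51.1 FPKM) were among the highest, and their ranges overlapped. HOXB4 (46.7 ± 2.97 FPKM), HOXB8 (41.6 ± 8.304 FPKM), HOXB5 (41.2 ± 2.305 FPKM) and HOXA4 (33.02 ± 4.97 FPKM) came next, and their ranges over the libraries overlapped in part. HOXA7 had 28.98 ± 3.83 FPKM, HOXA3 28.5 ± 3.51 FPKM, HOXB3 24.2 ± 3.503 FPKM and HOXD3 23.6 ± 2.94 FPKM, and in this order HOXA7 and HOXA3, and HOXB3 and HOXD3, differed by less than their SD. HOXB6 (16.5 FPKM), HOXD4 (13.6 FPKM), HOXD8 (11.2 FPKM), HOXA5 (10.7 FPKM), HOXB7 (8.96 FPKM), HOXB2 (7.99 FPKM), HOXA6 (7.52 FPKM) and HOXA9 (6.81 FPKM) formed the lower range. HOXC9 (4.11, 5.13 and 5.81 FPKM) and HOXC8 (3.94, 6.99 and 3.67 FPKM) were the members of the HOXC cluster above 1 FPKM, of those measured, which run from HOXC8 to HOXC13. HOXD9 (0.613, 1.48 and 1.31 FPKM) and HOXD1 (1.297, 0.852 and 1.102 FPKM) lay near the limit. Of the posterior genes, HOXA13 had 0.475, 0.417 and 1.42 FPKM, and HOXC10 (0.154 FPKM), HOXD10 (0.107 FPKM), HOXA10 (0.0975 FPKM), HOXD13 (0.0553 FPKM) and HOXB13 (0.00976 FPKM) were lower. HOXA11, HOXC11, HOXD11, HOXC12, HOXD12 and HOXC13 were listed at 0 in all 3 libraries. RPL14, NDUFA11 and ATP5G2, which cells use in general, are also listed at 0, so a 0 here is not read as absence of a transcript.

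**Figure D4:**
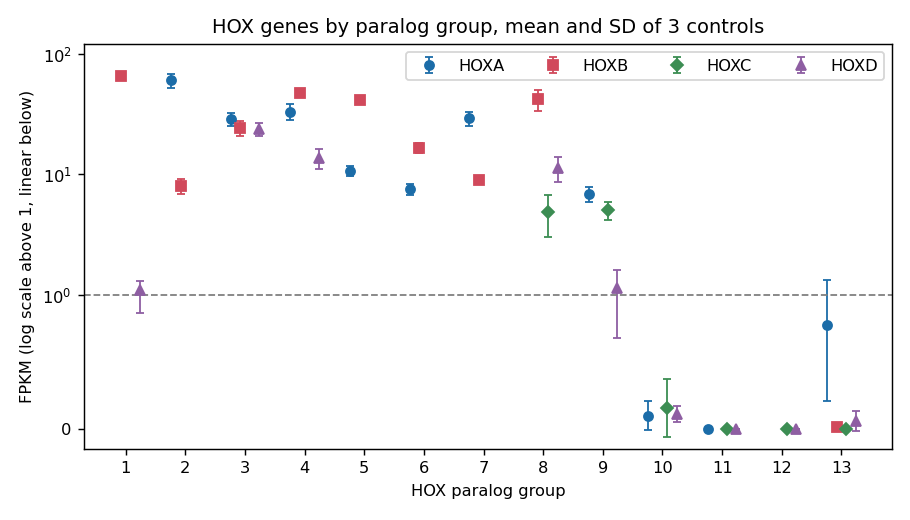
FPKM of 34 of the 35 HOX genes by paralog group and cluster, as mean and SD of the 3 controls, on an axis that is logarithmic above 1 FPKM and linear below. Groups 1 to 9 lie above the dashed line at 1 FPKM, and groups 10 to 13 lie below it.

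Other transcription factor families showed a wide range of levels among their members. SOX11 (53.7 ± 6.53 FPKM) and SOX4 (40.4 ± 5.102 FPKM), which are active in young neurons and mesenchyme, led 18 SOX genes, and IRX6 (97.3 ± 13.5 FPKM) led the 6 Iroquois genes. GATA5 (139 ± 6.22 FPKM) was above GATA2 (53.4 ± 8.01 FPKM) and GATA6 (29.6 ± 1.35 FPKM). TBX3 (97.7 ± 3.43 FPKM) led the T-box genes, with TBX1, a pharyngeal factor, second (43.1 ± 1.68 FPKM). Among nuclear receptors NR2F6 (248 ± 23.1 FPKM) was highest. The ID genes, inhibitors of basic helix-loop-helix factors and targets of BMP signals, were all high. ID1 had 513, 542 and 479.9 FPKM, ID4 369, 438 and 435 FPKM, ID3 254, 246 and 323 FPKM and ID2 243, 235 and 267 FPKM. HES1, a Notch target, had 146, 173 and 164 FPKM.

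In the WNT, FGF and BMP families of signals a larger share of the receptor genes than of the ligand genes reached 1 FPKM. Among all protein-coding genes 75.1% did, and the WNT ligands (78.9%) were near that share. The receptor families hold only 5 to 11 genes each. WNT ligands reached 1 FPKM for 15 of 19 genes, led by WNT5B (63.4, 66.6 and 55.6 FPKM) and WNT5A (46.1, 59.2 and 41.5 FPKM), while all 10 Frizzled receptors did, led by FZD7 (142, 173 and 127 FPKM) and FZD2 (106, 153 and 81.4 FPKM). Of 19 FGF genes, 10 reached 1 FPKM, led by FGF12, an intracellular member of the family (32.9 ± 7.28 FPKM), and FGF8 (28.99 ± 5.33 FPKM). All 5 FGF receptor genes reached it, with FGFR1 at 182, 223 and 155 FPKM. BMP, GDF and TGF-beta ligands counted 14 of 23, with TGFB1 (86.7 ± 8.58 FPKM) and BMP4 (73.9 ± 8.58 FPKM) highest, and their receptors 10 of 11, with ACVR2A highest (38.5 ± 2.17 FPKM).

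All 9 measured genes of the hedgehog pathway reached 1 FPKM. The SHH receptor gene PTCH1 (16.1, 19.5 and 12.5 FPKM), which is itself a target of the pathway, its transducer SMO (77.5, 103 and 74.1 FPKM) and its target GLI1 (45.2, 51.2 and 43.6 FPKM) were expressed beside the ligands SHH and IHH (10.9 FPKM). Of the Notch genes NOTCH1 was highest (36.6, 40.6 and 30.1 FPKM), followed by JAG1 (21.6 FPKM). In the retinoic acid pathway, CRABP2, a binding protein that delivers retinoic acid to the nucleus, had 211, 196 and 316 FPKM, and the receptor RARA had 107, 123 and 126 FPKM. The enzyme of synthesis ALDH1A2 had 29.4, 23.6 and 24.4 FPKM, and the degrading enzymes CYP26C1 (65.4 FPKM), CYP26B1 (14.3 FPKM) and CYP26A1 (12.3 FPKM) were all expressed. Of cell surface families, CDH3, P-cadherin, had 316, 376 and 297 FPKM, above CDH2 and CDH1. EFNB1, an ephrin, had 214, 239 and 201 FPKM. All 17 semaphorin genes reached 1 FPKM, with SEMA3F (199, 274 and 172 FPKM) and SEMA3B (136, 224 and 122 FPKM) highest. Of 20 claudin genes, 7 reached 1 FPKM (35%), against 75.1% of protein-coding genes, and CLDN3 and CLDN1 led them.

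In most genes the 3 controls differed by a ratio under 2. Pearson's r of log2(FPKM + 1) over the 13282 genes was 0.983 between control 1 and 2, 0.984 between control 1 and 3 and 0.971 between control 2 and 3. It is across genes, which are not independent replicates. The median CV of a gene over the 3 libraries was 13.6%, with quartiles at 8.54% and 20.6%, where counting reads alone would give 3.99%. The chi-square of a gene's reads in a pair of libraries had a median of 5.33, 5.03 and 11.4 in these pairs, where counting error alone gives 0.455, so no pair of libraries agreed within counting error as 1 library deposited again would. The ratio of FPKM + 1 between the highest and the lowest control was at least 2 for 447 genes (3.37%), and for 197 of the 11988 protein-coding genes (1.64%). Of the 447, 202 had gene models under 200 bases, where a few reads move the value, although only 351 of the 13282 genes are that short. By pair, control 1 was higher than control 2 by the ratio of 2 for 89 genes (0.67%) and lower for 74 (0.557%), and higher than control 3 for 115 (0.866%) and lower for 50 (0.376%). Control 2 was higher than control 3 for 240 genes (1.81%) and lower for 84 (0.632%). Control 2 was the highest and control 3 the lowest for 198 of the 447 genes and for 118 of the 197 protein-coding ones, and each of the 5 other orders held 34 to 57 of the 447. Over all 13282 genes, 3526 (26.5%) had control 2 highest and control 3 lowest, and 28.8% had the reverse. The count of 447 rests on control 2 and control 3, since it was 177 without control 2, 176 without control 3 and 329 without control 1.

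Genes of the yolk sac and plasma protein list stood apart most clearly. All 19 members at 1 FPKM or more were highest in control 2, and 18 of them lowest in control 3. Their mean log2(FPKM + 1), relative to each gene's mean over the libraries, was -0.03, 0.46 and -0.43 in control 1, 2 and 3, and over all 13282 genes 0.03, 0.00 and -0.03. The ratio of 2 was reached by 9 of the 19, against 3.37% of all genes, and by 0 of 19 when either control 2 or control 3 was left out. TTR differed by a ratio of 2.59, APOB, the protein of very low-density lipoprotein, by 2.56 (22.1, 36.7 and 13.7 FPKM), and RBP4A, which is not in the list, by 2.62. Among other protein-coding genes of 5 FPKM or more on average, named after their values were seen, the same order was shown by SLC30A2, a zinc transporter (17.7, 31.9 and 8.69 FPKM), SLC39A5, another zinc transporter (34.9, 58.5 and 22.7 FPKM), SLC34A1, a phosphate transporter (12.9, 24.7 and 7.83 FPKM), MELTF, melanotransferrin (32.8, 45.6 and 15.1 FPKM), and PTGDS, a prostaglandin synthase (47.96, 96.3 and 34.00 FPKM).

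Matrix and surface genes showed the same order of libraries with smaller differences. Of 49 matrix genes, 41 were highest in control 2 and 46 lowest in control 3, where over all 13282 genes 4626 were highest in control 2 and 5235 lowest in control 3. Their mean relative level was 0.05, 0.19 and -0.24 on the log2 scale in control 1, 2 and 3. All 14 cadherins at 1 FPKM or more, all 11 EPH receptors, all 6 Notch genes and all 5 FGF receptors were lowest in control 3, and so were 15 of 17 semaphorins. The relative level was 0.05, 0.24 and -0.29 for cadherins and 0.01, 0.24 and -0.25 for semaphorins. The notochord list (-0.02, 0.22 and -0.19) and the heart muscle list (0.00, 0.19 and -0.19) were also highest in control 2.

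Ribosomal genes and several other housekeeping classes, but not all, showed the opposite order. Of the 69 ribosomal protein genes at 1 FPKM or more, 68 were highest in control 3 and 66 lowest in control 2, where over all 13282 genes 4918 were highest in control 3 and 5860 lowest in control 2, and their relative level was -0.02, -0.17 and 0.19. Mitochondrial ribosomal proteins (62 of 73 highest in control 3), respiratory chain genes (55 of 71), cytoskeletal genes (37 of 49) and splicing proteins (34 of 43) went the same way. Glycolysis genes followed less clearly, with 10 of 21 highest in control 3 and 12 lowest in control 2 (0.04, -0.09 and 0.04). Sterol synthesis genes went the other way, with 12 of 19 highest in control 2 and 10 lowest in control 3 (-0.04, 0.13 and -0.08). Gene length moved in part with the order of the ribosomal protein genes. The median log2 difference of control 2 minus control 3 was -0.13 for genes of 500 to 1000 bases. Genes of that length include 40 of the 69 ribosomal protein genes. The median difference was 0.08 for genes over 8000 bases and 0.05 for the 574 genes of up to 500 bases. These 574 include 23 of the 69 ribosomal protein genes and 351 gene models under 200 bases, which rest on few reads. In addition, the mean length of a gene model, weighted by reads, was 3394, 3409 and 3253 bases in control 1, 2 and 3. The part of gene length in the differences between lists was not tested.

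The forebrain and eye list was highest in control 3. Of the 12 forebrain and eye genes at 1 FPKM or more, 11 were highest in control 3, and their relative level was -0.06, -0.25 and 0.30. Over all 13282 genes, 4918 were highest in control 3 and 2187 lowest in control 1. SIX3 had 19.6, 13.02 and 28.8 FPKM, RAX, the eye field factor, 6.21, 7.04 and 9.203 FPKM, and SIX6 3.22, 2.25 and 5.18 FPKM. The neural tube list was lowest in control 1 for 12 of 19 genes and highest in control 3 for 14 (-0.19, 0.01 and 0.18), and the tail bud list was also lowest in control 1 on average (-0.17, 0.07 and 0.10). Globin and blood genes were highest in control 1 (0.17, -0.15 and -0.01), as were endothelial genes (0.10, 0.02 and -0.12). Lateral plate genes differed least among the tissue lists drawn (-0.02, 0.00 and 0.02).

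**Figure D5:**
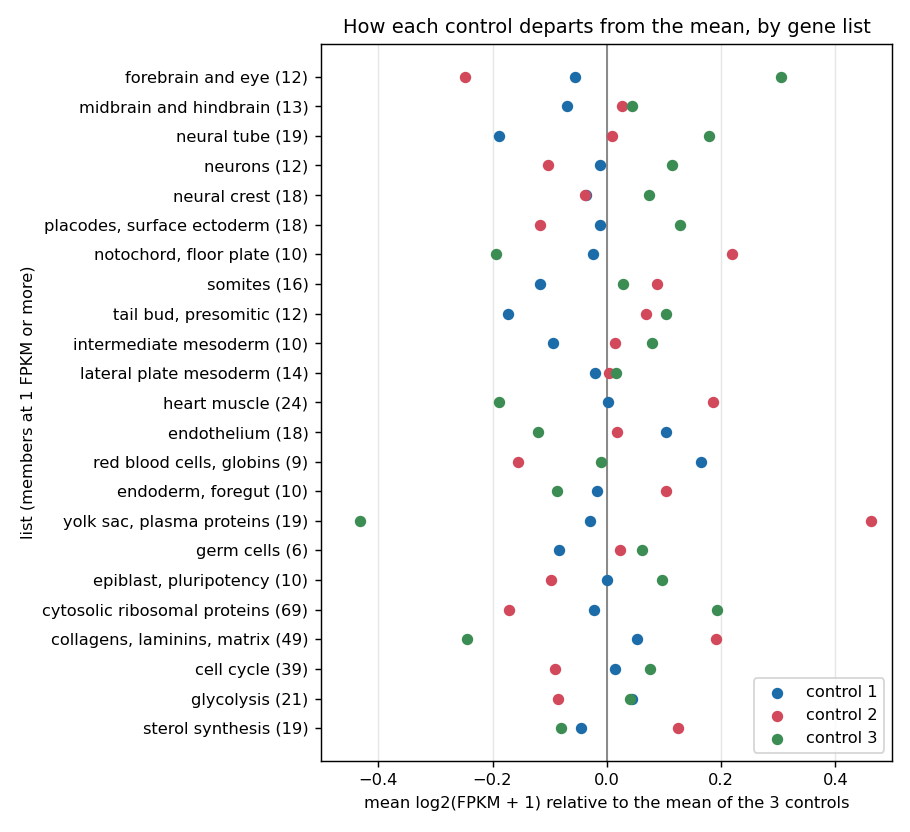
Mean log2(FPKM + 1) of the members of each list in control 1, 2 and 3, relative to each gene's mean over the 3 libraries. The yolk sac list spans -0.43 to 0.46, the widest range drawn, with control 2 on the right, while the forebrain and ribosomal lists have control 3 on the right.

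Genes on chromosome W, which in birds only females carry, also differed between the libraries. HINTW, the W-linked member of the HINT family, had 532, 244 and 813 FPKM, HNRNPKL 39.7, 18.6 and 60.97 FPKM and ATP5F1AW 41.8, 21.2 and 59.1 FPKM. Of 33 W-linked genes at 1 FPKM or more, 24 had control 3 highest and control 2 lowest, an order that 28.8% of all 13282 genes had. The sex of the embryos is not in the labels, and its part in the other differences was not tested.

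Of the 12 genes with the largest ratio between controls among the 9605 of 5 FPKM or more on average, 10 had gene models under 200 bases. These were the microRNA genes MIR1577, MIR1580, MIR1598 and MIR1555, the transfer RNA gene TRNAT-CGU, the small nucleolar RNA genes LOC112532463, LOC112532963, LOC112532949 and LOC112530962 and the unmatched identifier 100315754, each with 21 reads or fewer per library. The other 2 rested on more reads. The unmatched identifier 107050261 had 3.27, 4.05 and 69.3 FPKM, from 77, 95 and 1769 reads, and LOC107055485, a W-linked protein-coding gene, had 2.22, 17.4 and 2.76 FPKM, from 23, 180 and 31 reads.

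The steadiest genes of 20 FPKM or more on average were HNRNPUL1 (108, 108 and 107 FPKM), a nuclear ribonucleoprotein, and IDH3B (57.1, 56.8 and 56.9 FPKM), a subunit of the mitochondrial isocitrate dehydrogenase, followed by others that included LOC428335, ABR, ANXA1, PCCB, HNRNPDL, MPRIP and ANLN, with CVs of 0.159% to 0.705%. They were chosen for their small CV, which is a description of these 3 libraries. Genes commonly used to normalize expression varied about as much as other genes, with a median CV of 13.8% against 13.6% for all 13282 genes. Of the 18 measured, those with low CVs included SDHA (9.53% at 33.8 ± 3.22 FPKM), UBB (9.89%), RPS7 (10.04%) and PGK2 (10.1%). TBP, YWHAZ, ACTB, RPL13, RPLP0 and EEF1A1 had CVs from 12.8% to 14.8%, and HPRT1, PPIA, RPL30, GUSB and TFRC from 15.4% to 18.6%. GAPDH (1192, 841 and 1274 FPKM) had a CV of 20.9% and B2M (45.9, 40.3 and 28.5 FPKM) of 23.2%. Of the 18 genes, 13 were highest in control 3 and 13 lowest in control 2. Over all 13282 genes, 4918 were highest in control 3 and 5860 lowest in control 2.

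At the limit of 1 FPKM, the genes just inside were LOC112532128, RSPO4, MOGAT2 and the unmatched identifiers 112532926 and 112532627, with means of 1.0005 to 1.0018 FPKM. Those just outside were LOC101751434, LOC107050029, LOC101748689, LOC107053008 and PDX1, with means of 0.9979 to 0.9994 FPKM. Of the 13282 genes, 635 were under 1 FPKM in at least 1 library.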

How the data were processed

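RNA of whole stage 10 embryos was extracted with Trizol, made into libraries with an Illumina TruSeq kit and sequenced in pairs on a HiSeq instrument, per the labels' protocols. The submitters' processing notes name HTSeq 0.6.1, TopHat2 2.0.12 and Bowtie2 2.2.3, and as genome build only mm10, which is of the mouse. The identifiers are NCBI gene numbers, and 19704 of 24098 (81.8%) matched the chicken RefSeq table of assembly GRCg7b, which was used for symbols, gene types, chromosome W and neighbouring genes. No coordinates are given. The authors deposited 1 value per gene and library, which behaves as FPKM, per the values in the files.

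Whole reads were recovered from the FPKM values. A value is a whole number of reads times a step set by gene length and library depth, and solving the steps over the libraries of the series gave depths and gene model lengths. For all 13282 genes the reads of each library came out whole to within 0.005, and the procedure was tested on simulated data. Treated libraries entered only this search for lengths. Counting error was taken from the reads, and CVs expected from it cover counting error only.

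The genes described have a mean of at least 1 FPKM in the controls. Shares are of summed FPKM over all genes in the files. Relative levels and ratios between libraries use log2(FPKM + 1), with a pseudocount of 1 that understates ratios of low genes, and a gene was counted as differing where the ratio of FPKM + 1 was at least 2. Marker lists and gene classes came from 36 lists with 702 entries, of which 591 matched by symbol, 19 by synonym and 92 not, and from 42 families found by name. The members and lists were chosen with earlier results of these data known. Genes were named by rule: the 30 most abundant, up to 6 highest members of each list and, for lists of up to 25, members under 1 FPKM, the 12 most and 10 least variable, all HOX, globin and reference genes, and the 5 on each side of the limit. For lists of later tissues, for families other than HOX and for single markers beyond these, genes were chosen after their values were seen. Some genes that the rule selects are not reported here. Python 3.11.15, numpy 2.4.6, pandas 2.3.3 and matplotlib 3.10.9 were used.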

Additional observations from a re-analysis of the deposited data

How the results depend on the processing

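Of 43 alternatives for 7 results, 32 left the value within the spread between libraries or, for counts, within 1.5 times, and 11 moved it. Counted as reads, the share of ribosomal protein genes was 6.24% in place of 17.9%. The share of the 100 most abundant genes, 28.7% of summed FPKM, was 16.0% of the reads for the 100 genes with the most reads and, in an alternative chosen after seeing the data, 13.9% for the same genes. The number of genes with a ratio of at least 2 between controls, 447 as reported, ranged from 176 to 329 when 1 control was left out. It was 872 with a pseudocount of 0.1 and 193 for genes of at least 5 FPKM. In an alternative chosen after seeing the data, it was 245 for gene models of at least 200 bases. With values rescaled to a common total, larger than the summed FPKM of any control, it was 682. This rescaling raises every value against the pseudocount, and 14420 genes reached the limit of 1 under it. Scaling each library by the median ratio of its genes (median-of-ratios size factors) gave 451. The mean correlation between controls, 0.980 as reported, was 0.966 with a pseudocount of 0.1 and 0.990 over all genes. The number of genes at 1 FPKM or more, the number of tissue markers and the median CV stayed within these limits under the alternatives run for them, with the number of genes from 11918 at a limit of 2 FPKM to 14572 at 0.5 FPKM. No paired analysis was possible because the 3 libraries form 1 group. Genes near 1 FPKM and gene models under 200 bases rest on few reads, and 3 libraries limit every statement on spread.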
